A study of Mus musculus with 10 samples.

Results

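The cytosolic ribosomal protein genes encode the proteins that, with ribosomal RNA, build the cell's ribosomes. They were taken as the genes whose symbol is Rpl or Rps and a number, alone or with a final a, x or l, together with Rpsa, Rplp0, Rplp1, Rplp2 and Fau, if their mean normalized count was at least 100 in both layers measured. This gave 80 genes, among 16292 listed for ameloblasts and 16638 listed for stratum intermedium: 44 of the large subunit, 33 of the small subunit and 3 of the stalk, the flexible arm of the large subunit that recruits elongation factors. Of these, 78 are annotated as protein-coding and 2, Rps4l and Rpl6l, as pseudogenes. They lie on 20 chromosomes, 4 of them on the X. Rpl6l was the member nearest the minimum, with means of 307 in ameloblasts and 261 in stratum intermedium. Rpl39l, a paralog of Rpl39, was just outside, with means of 71.3 and 160, and Rpl3l and Rpl32l were listed in 1 layer each, with means of 14.8 and 11.2.

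Each ribosome holds close to one copy of each of these proteins, with the acidic stalk proteins P1 and P2 as the exception, so their genes are usually transcribed and translated together. Their messenger RNAs are short, very abundant and mostly start with a C and a run of pyrimidines, the TOP motif, through which mTORC1 and LARP1 set their translation. Ameloblasts secrete the enamel matrix, and the stratum intermedium is the layer of flattened cells that lies against their base.

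Messenger RNA was sequenced from ameloblasts and stratum intermedium that had been laser-captured separately from frozen slides of mouse hemi-mandibles. Both genotypes came from mice: wild type (WT), and a knockout (KO) of claudin-10, a tight junction protein that forms ion channels between cells. Each layer had 2 WT and 3 KO libraries, 10 in all. Strain, age, sex, the number of mice per capture and the deleted part of the gene were not given. The libraries are named here by the prefix of their names, WT10, WT5, KO1, KO3 and KO9. Each prefix occurs once in each layer and was taken to mark the same mouse. The names also carry a library group number, 1 for WT5 and KO3, 2 for WT10 and KO9 and 3 for KO1. What the number means was not given. Group 3 held no WT library, so a fit with library group as a block takes no genotype difference from KO1. Since nothing states that the libraries came from separate mice, a p-value here speaks only of the spread among these libraries, which may be technical. Values are the authors' normalized counts, scaled separately in each layer, so levels are not compared between layers except as a share of a library. Read depth is unknown.

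The targeted gene, Cldn10, had KO values below both WT values in each layer. In ameloblasts it stood at 600 in WT10 and 752 in WT5, and at 280, 408 and 149 in KO1, KO3 and KO9. In stratum intermedium it stood at 7257 and 2365 in WT, and at 1003, 387 and 465 in KO. In limma, the test used below, its log2 difference in ameloblasts was -1.38 ± 0.46 (SE; unadjusted p = 0.0208, adjusted p = 0.989). In stratum intermedium it was -2.87 ± 0.56 (unadjusted p = 0.0012, adjusted p = 0.9999). The targeted gene itself thus did not pass, so a gene that does not pass is not shown to be unchanged. The listed values of a library summed to between 21006977 and 26856177. WT10 had the most listed genes at 0 in both layers. In ameloblasts it had 706, against 33 to 420 in the other libraries. In stratum intermedium it had 854, against 633 in KO1 and 36 to 210 in WT5, KO3 and KO9. Xist, read as a sign of female sex, stood between 5791 and 9555 in KO1 and KO3 and between 0 and 33.2 in the other 3, and the Y-linked Ddx3y was at 0 in KO1 and KO3. Both prefixes read as female were therefore KO. Ameloblast markers took 3.05% to 10.8% of listed counts in the ameloblast libraries and 0.182% to 1.20% in the stratum intermedium libraries, while stratum intermedium markers took 0.0968% to 0.265% and 0.192% to 0.534%, which overlap.

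In ameloblasts, all 80 ribosomal protein genes had a lower mean log2 level in KO than in WT, by a median of 0.38 (log2 difference -0.38, or 77.0% of the WT level). By comparison, 47% of all 16212 genes tested were lower, and the median over all genes was 0.04. The differences of the members ran from -0.91 for Rps12 to -0.04 for Rpl4. In 64 of the 80, every KO library lay below both WT libraries, which was so for 9.26% of all genes tested, and in 0 of the 80 every KO library lay above both, against 9.09%. None of the 80 passed the test: limma on log2(normalized count + 1), adjusted by Benjamini-Hochberg over all genes tested, called 0% of all genes, and the smallest adjusted p of a member was 0.989. At an unadjusted p under 0.05, 10 members were lower and 0 higher, against 0.82% of all genes lower and 2.25% higher. That count of 10 was 3 without WT5, 1 without KO1 and 2 without KO3 or KO9, and 20 with quantile normalization or equal totals. These are bulk samples, so fewer cells of a type and less RNA per cell cannot be told apart.

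**Figure D1:**
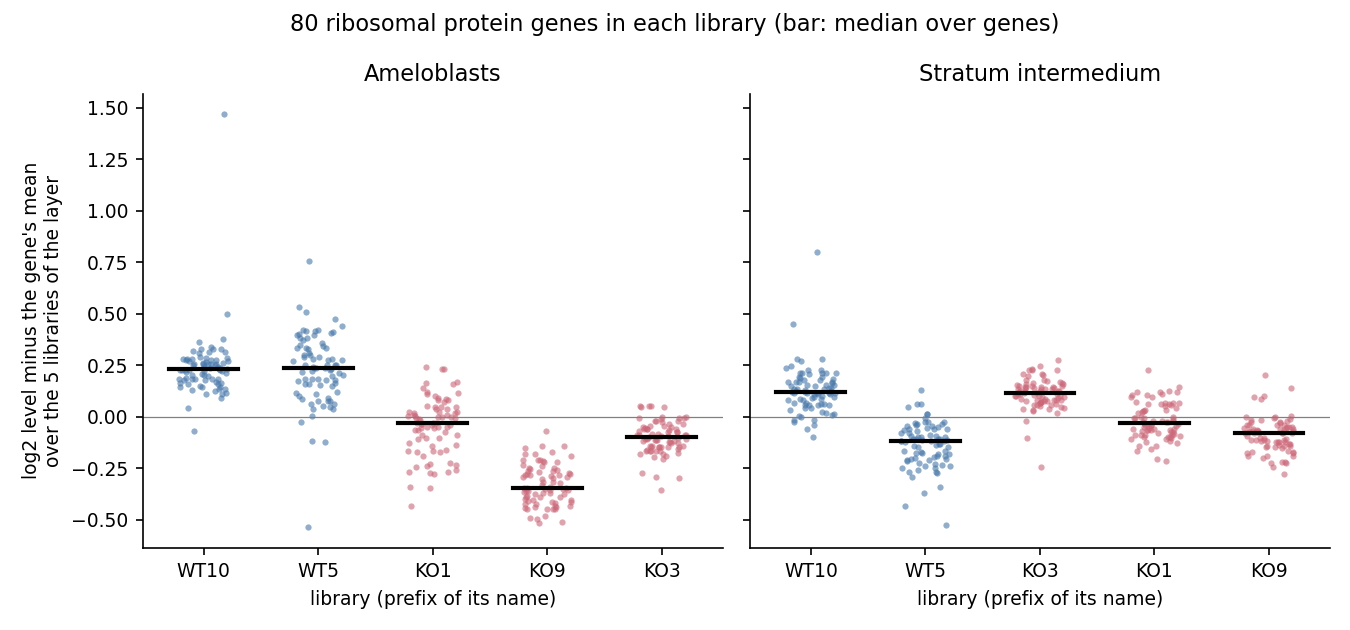
Log2 level of each of the 80 genes in each library, as the difference from the gene's own mean over the 5 libraries of the layer (vertical axis, log2 units), for ameloblasts on the left and stratum intermedium on the right. Blue points are genes in WT libraries, red points genes in KO libraries, and black bars the median over the 80 genes, which in ameloblasts is 0.23 and 0.24 in the 2 WT libraries and -0.03, -0.34 and -0.10 in KO1, KO9 and KO3.

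The genes stood high or low together, library by library. In ameloblasts the median member stood 0.23 (log2) above its 5-library mean in WT10 and 0.24 above it in WT5, and at -0.03, -0.10 and -0.34 in KO1, KO3 and KO9. KO9 was the lowest of the 5 libraries for 69 of the 80 genes. WT5 was the highest for 43 and WT10 for 35. Without KO9 the median difference was -0.29, with 79 of 80 genes lower, and without WT10 it was -0.40, with 77 lower. Every other ameloblast library could be left out with 80 of 80 lower.

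As a share of all counts over the 15625 genes listed in both layers, the ribosomal protein genes took 4.99% ± 0.10 (SD, n = 2) in WT ameloblasts and 3.86% ± 0.24 (n = 3) in KO ameloblasts. The WT libraries lay at 4.92% and 5.07% and the KO libraries at 3.86%, 4.11% and 3.62% in KO1, KO3 and KO9, so the groups did not overlap. The large subunit and stalk genes together took 3.09% ± 0.05 in WT and 2.42% ± 0.16 in KO, and the small subunit genes 1.90% ± 0.05 and 1.44% ± 0.09.

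Among the 44 large subunit genes, the median log2 difference in ameloblasts was -0.37. In 35 of them every KO library lay below both WT libraries, against 9.26% of all genes tested. Rpl12, which helps form the base of the stalk, had normalized counts of 4495 and 5245 in WT10 and WT5 and of 3107, 3720 and 2784 in KO1, KO3 and KO9, a log2 difference of -0.61 ± 0.23 (SE; unadjusted p = 0.0318, adjusted p = 0.989). Rpl28, at chr7:4792874-4795066 on the plus strand, stood at 5623 and 6318 in WT and at 4026, 4263 and 3861 in KO. Rpl36, on chromosome 17, stood at 6123 and 6895 in WT and at 4286, 4668 and 4351 in KO. In these 3 genes the lowest WT value exceeded the highest KO value, and in Rpl28 and Rpl36 the KO libraries lay close to each other.

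At the other end stood the 2 large subunit genes with the longest coding sequences. Rpl4, whose long extension reaches into the ribosome, stood at 48317 and 39778 in WT and at 50919, 42557 and 35638 in KO, and KO1 was the highest of the 5. Rpl3, which lies near the peptidyl transferase centre, stood at 29988 and 22872 in WT and at 27779, 23207 and 21507 in KO. Both overlapped between genotypes, and both had a difference above 0 when WT10 was left out (0.10 for Rpl4 and 0.07 for Rpl3). Rpl5, which carries 5S ribosomal RNA into the ribosome and binds Mdm2 when ribosome assembly fails, stood at 19634 and 21080 in WT and at 17850, 17717 and 13368 in KO. Its groups did not overlap in ameloblasts, and its log2 difference was -0.33 ± 0.24 (unadjusted p = 0.212). Rpl32 had the highest ameloblast level per length, 52052 ± 9431 normalized counts per kilobase of transcript (SD over 5 libraries). It stood at 31940 and 29553 counts in WT and at 28704, 24900 and 19456 in KO.

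Among the 33 small subunit genes, the median log2 difference in ameloblasts was -0.38. In 27 of them every KO library lay below both WT libraries, against 9.26% of all genes tested. Rps12, at chr10:23785183-23787275 on the minus strand, had the largest difference and the smallest p of the 80. It stood at 2797 and 3771 in WT10 and WT5 and at 1651, 1985 and 1586 in KO1, KO3 and KO9, or 53% of the WT mean. All 3 KO libraries lay below both WT libraries, and the log2 difference was -0.91 ± 0.24 (SE; unadjusted p = 0.00739, adjusted p = 0.989). Averaged over the 5 libraries, it had 4773 ± 1873 counts per kilobase.

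Rps28 and Rps29, 2 of the smallest proteins of the small subunit, had nearly the same pattern. Rps28 stood at 3729 and 3995 in WT and at 2590, 2533 and 2758 in KO, a log2 difference of -0.56 ± 0.20 (unadjusted p = 0.0281). Rps29 stood at 3965 and 4627 in WT and at 3027, 2665 and 3092 in KO, a difference of -0.55 ± 0.21 (unadjusted p = 0.0353). In both, KO9 was the highest KO library, unlike in most of the 80 genes. Rpsa, the laminin receptor gene, stood at 17156 and 14797 in WT and at 13424, 11786 and 10025 in KO. Fau, whose product is cut into a ubiquitin-like protein and the small subunit protein eS30, stood at 12230 and 11901 in WT and at 11399, 9387 and 8174 in KO. The groups did not overlap in either gene. Rps14 and Rps19, which with Rpl32 had the highest levels per kilobase in ameloblasts (47398 ± 8247 and 46739 ± 8841), had log2 differences of -0.36 ± 0.25 and -0.28 ± 0.28. Rps19 overlapped between genotypes, at 34903 and 30685 in WT and at 34202 in KO1.

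The stalk genes differed among themselves. Rplp1 stood at 9657 and 11088 in WT ameloblasts and at 8110, 8089 and 5893 in KO, and Rplp2 at 4757 and 5678 in WT and at 3978, 3822 and 3313 in KO. Both had KO libraries wholly below WT, with log2 differences of -0.51 ± 0.24 and -0.49 ± 0.22 (unadjusted p = 0.0743 and 0.0567). Rplp0, the scaffold on which P1 and P2 assemble, stood at 61490 and 52403 in WT and at 61351, 47995 and 41005 in KO. Its genotypes overlapped, since KO1 was above WT5, and its difference was -0.20 ± 0.29 (unadjusted p = 0.512).

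Rps4l, annotated as a transcribed processed pseudogene at chr6:148354656-148355598, stood out through WT10 in both layers. It stood at 6412 in WT10 ameloblasts, against 1597 in WT5 and 1823, 1890 and 1881 in KO1, KO3 and KO9. In stratum intermedium WT10 was again the highest, at 3537, against 1683 in WT5 and 1749, 1713 and 1923 in KO. Its log2 differences, -0.78 ± 0.53 in ameloblasts and -0.44 ± 0.32 in stratum intermedium (unadjusted p = 0.186 and 0.202), became 0.22 and 0.09 without WT10. Its X-linked relative Rps4x, annotated as protein-coding, showed no such library. Rps4x stood at 14537 and 15621 in WT ameloblasts and at 11944, 12330 and 11563 in KO. Over 789 aligned bases, the GENCODE coding sequence of Rps4x and transcript of Rps4l were 79.6% identical, with 161 mismatches. The stretch from base 61 to base 120 of the alignment is printed, with the 19 bases that differ in capitals, as an example. It holds more mismatches for its length than the whole alignment does.
Rps4x: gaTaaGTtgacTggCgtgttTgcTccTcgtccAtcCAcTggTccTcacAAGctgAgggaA
Rps4l: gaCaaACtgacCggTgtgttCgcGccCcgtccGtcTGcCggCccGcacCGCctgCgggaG

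**Figure D2:**
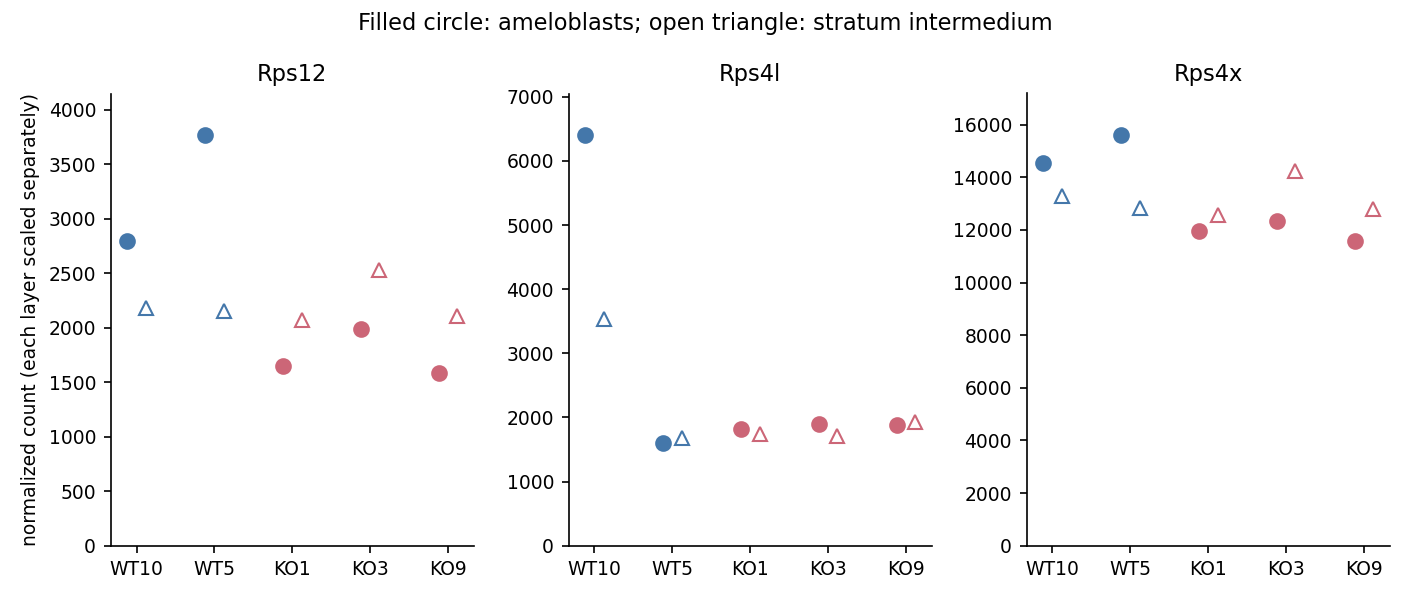
Normalized counts of Rps12, Rps4l and Rps4x (vertical axes, starting at 0) in each of the 5 library prefixes, with filled circles for ameloblasts, open triangles for stratum intermedium, blue for WT and red for KO. Rps12 is lower in all 3 KO ameloblast libraries, at 1586 to 1985 against 2797 and 3771, and Rps4l stands out in WT10 alone, at 6412 and 3537.

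The other paralogs had differences near the group median. Rps27l, a paralog of Rps27 that p53 is known to induce, stood at 3649 and 4067 in WT ameloblasts and at 2623, 3444 and 3017 in KO. Rpl6l, the least abundant member per kilobase at 353 ± 58 in ameloblasts, stood at 385 and 316 in WT and at 298, 248 and 290 in KO. Neither passed the test (adjusted p = 0.989 for both). Rps20 came next at 1640 ± 324 per kilobase and Rpl12 after it at 3116 ± 812. The annotated transcript used for Rps20 is 3706 bases long for a coding sequence of 357, so its level per kilobase is a low estimate. That used for Rpl12 is 1242 bases long for a coding sequence of 495, so its place in this order may also rest on the transcript chosen.

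In stratum intermedium the ribosomal protein genes showed no common direction. Of the 80, 37 were lower and 43 higher in KO, where 48.1% of all 16543 genes tested were lower, and the median difference was 0.01. No member had every KO library below both WT libraries or above both, against 7.44% and 7.76% of all genes. None passed limma's test (smallest adjusted p = 0.9999), 0% of all genes did, and 0 of 80 had an unadjusted p under 0.05, against 0.786% of all genes lower and 1.27% higher. The 44 large subunit genes had a median of 0.00 and the 33 small subunit genes a median of 0.01.

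The 2 WT stratum intermedium libraries disagreed, with the members at 5.12% of listed counts in WT10 and 3.80% in WT5. The KO libraries lay between them, at 4.53%, 4.85% and 4.26% in KO1, KO3 and KO9. The means were 4.46% ± 0.94 in WT (SD, n = 2) and 4.55% ± 0.30 in KO (n = 3). Without WT10, 7 of 80 genes were lower in KO, and without WT5, 71 were, so the direction depended on which WT library was kept. Marker sums also differed between these 2 libraries, WT10 first: 2.05% and 5.21% for 10 of 10 fibroblast markers, 0.191% and 0.939% for 9 of 9 osteoclast markers, 0.146% and 0.911% for 6 of 7 red blood cell markers, and 0.534% and 0.192% for 12 of 12 stratum intermedium markers. Their part in the members' difference was not tested.

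The members farthest from the median of the group in stratum intermedium were Rps4l and Rpl5 below and Rps29 and Rplp2 above. Rpl5 stood at 17611 and 17415 in WT10 and WT5 and at 14290, 17626 and 13132 in KO1, KO3 and KO9, a log2 difference of -0.23 ± 0.19 (unadjusted p = 0.251). Rps29 stood at 4324 and 2586 in WT and at 4061, 3680 and 4296 in KO, a difference of 0.26 ± 0.25 (unadjusted p = 0.33), and all KO values lay between the 2 WT values. Rplp2 stood at 4592 and 3860 in WT and at 4947, 4948 and 4517 in KO (0.19 ± 0.18, unadjusted p = 0.32). Rps14 stood at 27060 and 24078 in WT and at 28764, 33332 and 25087 in KO (0.18 ± 0.19, unadjusted p = 0.379). Rps12, which had the largest difference in ameloblasts, stood at 2178 and 2150 in WT and at 2072, 2532 and 2103 in KO, with KO values on both sides of WT.

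**Figure D3:**
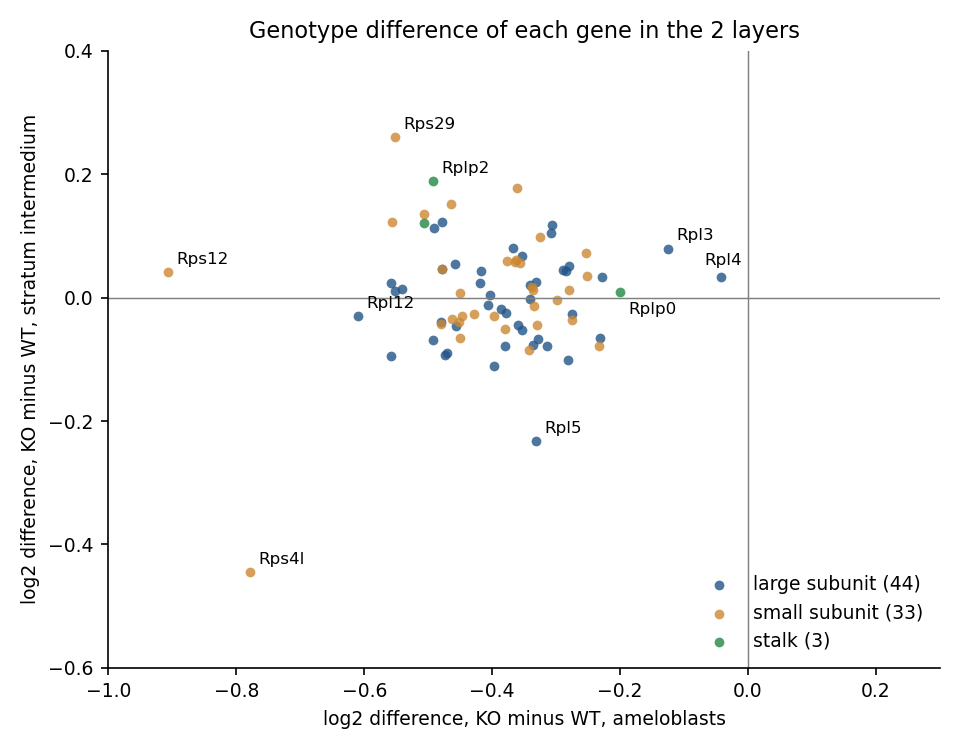
Log2 difference, KO minus WT, of each of the 80 genes in ameloblasts (horizontal axis) and in stratum intermedium (vertical axis), coloured by subunit. Every point lies left of 0, between -0.91 and -0.04, while vertically the points spread from -0.44 to 0.26 around 0.

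The difference between the layers was tested by taking, for each prefix, the ameloblast minus the stratum intermedium log2 level and comparing KO with WT in limma over 15567 genes, in which any constant factor between the separately scaled tables cancels. All 80 members had a lower value in KO, by a median of 0.39 (log2 difference -0.39), where 49.6% of all genes tested were lower and the median of all genes was 0.01. In 58 members the value of every KO prefix lay below both WT prefixes, which held for 11.5% of all genes. None of the 80 passed (smallest adjusted p = 0.836), and 0% of all genes did. At an unadjusted p under 0.05, 15 members were lower, against 2.03% of all genes, and 0 higher, against 3.12%. That count of 15 was 32 without WT10, 2 without WT5, 8 without KO1 and 1 without KO3 or KO9. The smallest p-values belonged to Rps12 (-0.95 ± 0.23, unadjusted p = 0.00465), Rplp2 (-0.68 ± 0.23, unadjusted p = 0.0195) and Rplp1 (-0.63 ± 0.22, unadjusted p = 0.0226), each with an adjusted p of 0.836. All KO libraries lay below the WT mean in ameloblasts and above it in stratum intermedium for 10 members, against 4.5% of the genes tested. In none of the 10 did every KO library lie above both WT libraries in stratum intermedium. The median difference rested in part on WT5: it was -0.26 without it and -0.51 without WT10. The genes' differences in the 2 layers were not related in order, with a Spearman rho of -0.04 across the 80 genes, which share their libraries and are not independent.

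Set side by side as shares, WT5 held more ribosomal protein counts in ameloblasts than in stratum intermedium, 1.33 times as much, with 80 of 80 genes higher. WT10 held about the same share in both, 0.961 times, with 58 of 80 genes lower in ameloblasts. The 3 KO prefixes were alike, with ratios of 0.852 in KO1, 0.847 in KO3 and 0.851 in KO9, and with 76, 77 and 78 of 80 genes lower in ameloblasts. In all 3 KO prefixes 72 of the 80 were lower in ameloblasts, against 39.8% of the 15625 genes in both tables, and 16 of these were also higher in both WT prefixes, against 3.3%. No member was lower in all 5 prefixes or higher in all 5, against 19.9% and 5.73% of the genes. The mean log2 ratio of the layers was 0.18 in WT and -0.27 in KO. Measured against the median ratio of the genes that are no members, the same means were 0.35 and -0.02, with 0.09 in KO1, -0.08 in KO3 and -0.07 in KO9, so the KO prefixes lay on both sides of the median gene. The order of the genes by level was nearly the same in the 2 layers, with a Spearman rho of 0.997 between the mean levels across the 80 genes, whose points share gene length and base composition.

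**Figure D4:**
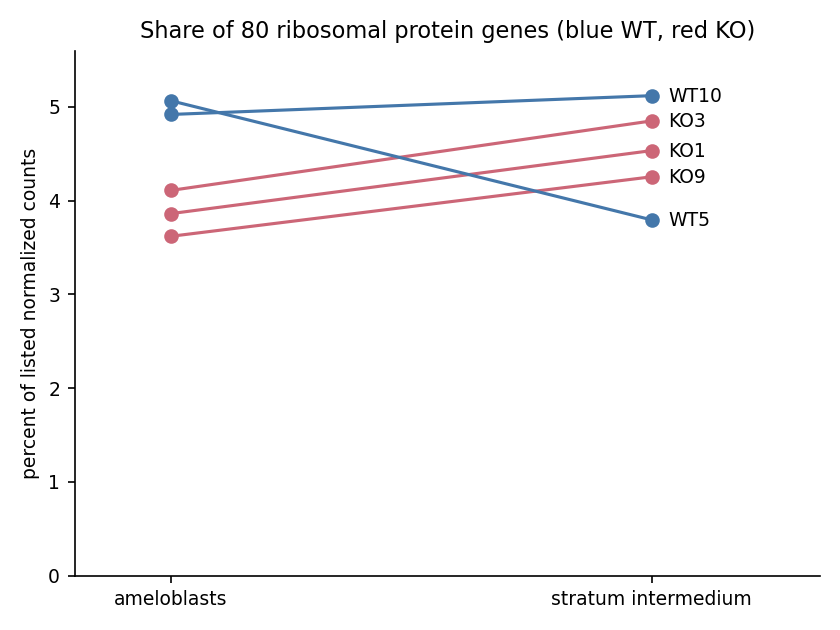
Percent of listed normalized counts in the 80 genes (vertical axis, starting at 0) in ameloblasts and stratum intermedium, with a line joining the 2 libraries of each prefix, blue for WT and red for KO. The KO lines run parallel from 3.62 to 4.11% up to 4.26 to 4.85%, WT10 stays near 5% and WT5 runs from 5.07% down to 3.80%.

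The size of the ameloblast difference followed the length and the abundance of the genes. Across the 78 protein-coding members, the log2 difference had a Spearman rho of 0.70 with coding length and of 0.73 with the mean normalized count, and length and count were themselves related (0.61). The 10 members with coding sequences of up to 300 bases had a median difference of -0.50, the 47 of 300 to 600 bases -0.39, and the 18 of 600 to 900 bases -0.29. Other short genes were lower too: of 309 other protein-coding genes of up to 300 coding bases, 72.5% were lower in KO, with a median of -0.22. Of 1511 genes of 300 to 600 bases, 57.0% were lower, with a median of -0.07, and of 7950 genes of over 1200 bases 43.2%, with a median of 0.08. In each of these length classes up to 900 bases the ribosomal protein genes had a median below that of the other genes, by 0.28, 0.32 and 0.29. In stratum intermedium the relation to length was weak and of the opposite sign (rho -0.21), and the 10 shortest members had a median of 0.12. The part of transcript length in the ameloblast result was not tested.

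**Figure D5:**
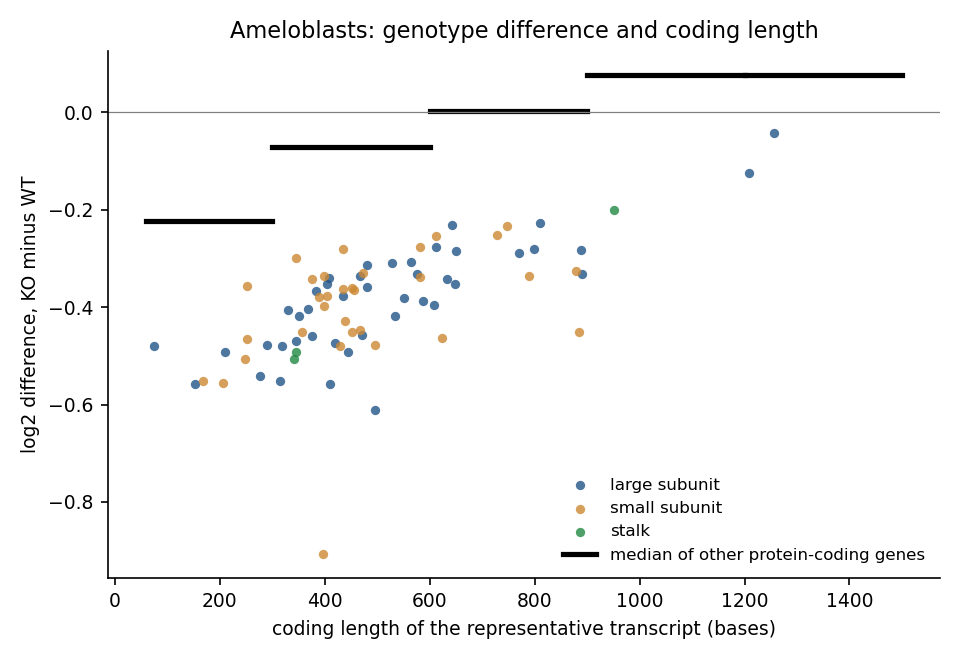
Log2 difference, KO minus WT, in ameloblasts (vertical axis) against coding length in bases (horizontal axis) for the 78 protein-coding members, coloured by subunit, with black bars for the median of all other protein-coding genes in the same length class (the last class, over 1200 bases, is drawn to 1500). The members go from a median of -0.50 at up to 300 bases to -0.29 at 600 to 900 bases, and all lie below 0, while the bars run from -0.22 to 0.08.

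The starts of the genes were read from RefSeq promoters on GRCm38.p6, in which 58 of the 80 genes had an entry, each spanning 250 bases before to 50 after the annotated start. A C followed by at least 6 C or T, read on the gene's strand between 20 bases before and 50 after the start, was found in 46 of the 58 (79.3%), and in 29.4% of all 27025 promoters. The letters CCGGAAG, the core of ETS family binding sites, were found on either strand of the 300 bases in 23 (39.7%) against 9.12% of all promoters. The letters AAGATGG, part of the YY1 motif, were found in 9 (15.5%) against 6.48%, and TATAAA in 5 (8.62%) against 14.2%. The searches were made separately, so matches can share bases, and a match is not a binding site. The windows from 30 bases before to 30 after the annotated start are shown for the 4 matched protein-coding genes with the lowest ameloblast difference and the 2 with the highest, with each such pyrimidine run in capitals (Rpl39 has one on each side of its start), so that the genes at both ends of the range can be compared.
Rps12: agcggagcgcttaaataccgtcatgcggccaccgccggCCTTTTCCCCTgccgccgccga
Rpl12: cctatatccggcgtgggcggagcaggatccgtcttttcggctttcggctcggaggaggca
Rpl28: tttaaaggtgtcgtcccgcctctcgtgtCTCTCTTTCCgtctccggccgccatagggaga
Rpl39: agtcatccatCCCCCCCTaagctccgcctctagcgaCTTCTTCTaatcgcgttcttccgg
Rplp0: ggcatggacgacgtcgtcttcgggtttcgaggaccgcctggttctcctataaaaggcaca
Rpl4: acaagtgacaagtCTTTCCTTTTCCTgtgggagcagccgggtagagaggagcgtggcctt
These lie at chr10:23787180-23787239 (minus strand), chr2:32961682-32961741, chr7:4792935-4792994, chrX:37085193-37085252 (minus strand), chr5:115559437-115559496 and chr9:64173357-64173416. A C followed by at least 6 pyrimidines is within the window of Rps12, Rpl28, Rpl39 and Rpl4 and not in those of Rpl12 and Rplp0. At this cutoff both ends of the range hold genes with and without one. Rpl12 falls just short of it, with cttttc, a C followed by 5 pyrimidines, soon after its annotated start. In Rplp0 the letters tataaa lie after the annotated start, and where its messenger RNA begins was not tested. The split thus rests on the cutoff and on the annotated starts. The first run begins at position 9 in Rps12, -2 in Rpl28, -20 in Rpl39 and -17 in Rpl4, negative being before the annotated start. The run of 13 bases in Rpl4 ends before that start. Whether any of these runs opens the messenger RNA was not tested.

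Genes that work with the cytosolic ribosome, and those of the separate mitochondrial ribosome, were counted from lists. Of the 21 other TOP messenger RNAs, 20 were lower in KO ameloblasts, against 47% of all genes tested. Their median was -0.18, and none passed the test. Tpt1, the translationally controlled tumour protein gene, had a difference of -0.60 ± 0.23 (unadjusted p = 0.0371), and Rack1, whose product sits on the small subunit, one of -0.47 ± 0.20 (unadjusted p = 0.0542). In stratum intermedium 11 of the 21 were lower, with a median of -0.02. Of 78 mitochondrial ribosomal protein genes, 67 were lower, with a median of -0.21, and in stratum intermedium 32 were.

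The other translation genes showed less of a common direction in ameloblasts. Of 38 ribosome biogenesis genes 26 were lower, with a median of -0.15, and in stratum intermedium 27 were, with a median of -0.14. Gtpbp4, needed to mature the large subunit, had an ameloblast difference of -0.52 ± 0.23 (unadjusted p = 0.0566) and Taf1b, a subunit of the RNA polymerase I factor SL1, one of 0.78 ± 0.29 (unadjusted p = 0.0324). Of 27 initiation factor genes 15 were lower (median -0.03), of 19 genes of mTORC1, S6 kinase, LARP1 and MYC 10 (median 0.00), and of 12 genes of ribosome quality control and p53 signalling 5 (median 0.03). None of the genes in these lists passed the test in either layer.

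Pseudogene copies share sequence with the members, and how reads that fit several copies were counted was not stated. Processed copies named after ribosomal protein genes were listed in 84 rows in ameloblasts and 83 in stratum intermedium, and summed to 2.30% and 2.33% of the counts of the 80 genes. In ameloblasts 76 of 83 tested copies were lower in KO, with a median of -0.39, near the -0.38 of the 80 genes. Some 6 rows, of Rpl35a-ps2, Rpl35a-ps3, Rpl35a-ps4 and Rpl35a-ps6 and of Rps19-ps1 and Rps19-ps2, had values identical to another row in every library.

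Markers of other cells differed between the ameloblast genotypes as well. Of 7 red blood cell markers 5 were listed, all 5 lower in KO, and their sum lay between 0.244% and 1.28% of listed counts in WT and between 0.0814% and 0.144% in KO. All 12 stratum intermedium markers were listed, 11 of them higher in KO, and their sum lay between 0.0968% and 0.117% in WT and between 0.181% and 0.265% in KO, with 1 value at 0, of Rhcg. Of 12 ameloblast markers 11 were listed, and their sum overlapped between the genotypes, at 3.09% to 6.24% in WT and 3.05% to 10.8% in KO. Osteoclast markers, 9 of 9 listed and 9 lower in KO, overlapped as well, at 0.351% to 0.775% and 0.104% to 0.460%. The part of these cells in the ribosomal protein result was not tested. With sex as a covariate, where the genotype difference rests on KO9 against the 2 WT libraries, 80 of 80 members were lower, with a median of -0.56.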

How the data were processed

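The signal values were deposited as 1 table per layer of the authors' DESeq2 normalized counts per gene. Per the submitters' processing notes the build was GRCm38 and the tools included STAR 2.5.2b, featureCounts, DESeq, FastQC and Picard 2.8.1. The tables are named for Ensembl release 101 and as without outliers, and no settings were given. The values are not whole multiples of a read, so no count test was run. A gene listed has at least 10 in at least 3 libraries. Columns were matched by library name, with 0 columns unused.

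In R 4.3.3, limma 3.58.1 with a mean-variance trend compared KO with WT separately for the layers (two-sided), on log2(value + 1) of every gene whose mean reached 10, with Benjamini-Hochberg adjustment over all genes tested and a threshold of 0.05. Fold changes are on that log2 scale. The script was tested on simulated data. Positions and lengths came from GENCODE on GRCm38, to which all 80 members matched; levels per kilobase use 1 representative transcript. The members and lists were chosen with earlier results of these data known, and the mitochondrial ribosomal protein and pseudogene lists were added after the values were seen. Named genes were Cldn10, in each layer the 5 members with the smallest p and the 2 farthest above and below the member median, the 3 with the smallest p between layers, the 3 highest and lowest per kilobase, the paralogs ending in l or x, those matched by full name, and those next to the minimum of 100; Rps29 in ameloblasts and Rpl39 were chosen after their values were seen. Marker lists for skeletal muscle, leukocytes, fibroblasts, endothelium and mitochondrial transcripts were read as well. Their summed shares overlapped between genotypes in ameloblasts. Of 13 skeletal muscle markers, 13 were higher in KO ameloblasts (median 1.04). In KO stratum intermedium 12 were higher and 1 lower (median 1.14). None of them passed the test in either layer, and the part of muscle in the ribosomal protein result was not tested.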

Additional observations from a re-analysis of the deposited data

Results flagged for a closer look

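In 4 of the genes described, all 3 KO libraries lay below the WT mean in ameloblasts and all 3 lay above it in stratum intermedium. The genotype difference in ameloblasts minus that in stratum intermedium was -0.63 (log2) for Rplp1, -0.68 for Rplp2, -0.68 for Rps28 and -0.81 for Rps29. That opposite placement was not itself tested. In stratum intermedium none of the 80 genes had every KO library above both WT libraries, so the placement there rests on the mean of 2 differing WT libraries. Rps28 stood at 3614 and 2204 in WT10 and WT5 of that layer and at 3035, 3006 and 3180 in KO1, KO3 and KO9. Its KO values, like those of Rps29, all lay between the WT values. The limma test of the difference between layers gave unadjusted p-values of 0.0226, 0.0195, 0.0439 and 0.0308 and an adjusted p of 0.836 for each. Over all 80 ribosomal protein genes, 10 were placed in this way, against 4.5% of the 15567 genes tested in both layers. The others were Rpl18, Rpl22, Rpl31, Rps2, Rps21 and Rps27. For Rpl18, KO9 stood at 9049.39 in stratum intermedium, against a WT mean of 9048.43.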

How the results depend on the processing

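None of the 80 genes was called in either layer, or in the difference between layers, under any alternative run, including an adjusted p threshold of 0.1. In ameloblasts all 80 stayed lower under other pseudocounts, filters, scalings, weights, blocks and the sex covariate, which moved the median to -0.56; between layers all 80 stayed lower under these too. Leaving out each library kept 77 to 80 lower in ameloblasts and 79 to 80 between layers. In stratum intermedium the count of lower genes, 37, was 63 with the sex covariate, and 7 to 71 when each library was left out. With the replicate block it was 22, and 80 in ameloblasts with a median of -0.44. Nothing states that the replicate numbers pair WT with KO libraries. Same-numbered libraries had correlations of deviations of 0.09 and -0.12 in ameloblasts and -0.19 and -0.13 in stratum intermedium. The deviations of the 2 WT libraries mirror each other, so these correlations cannot decide on pairing. No replicate block could be fitted between layers, where the numbers name different prefixes. Without the 20 most abundant other genes in the total, the share was 6.01% in WT and 4.67% in KO ameloblasts and 5.19% in KO stratum intermedium; relative to the median gene, the layer difference in KO was -0.0196. Of single genes, Rps14 in stratum intermedium was -0.025 with the sex covariate. Leaving out each library gave ranges of -0.32 to 0.071 for Rpl3, -0.18 to 0.10 for Rpl4 and -1.78 to 0.22 for Rps4l in ameloblasts, -0.11 to 0.63 for Rps29 and -0.98 to 0.0906 for Rps4l in stratum intermedium, and -0.80 to 0.13 for Rps4l between layers. At an unadjusted p under 0.05 the lower genes numbered 2 with the replicate block and 1 with the library group block in ameloblasts, and 7 with the library group block and 2 with the sex covariate between layers. The cause of these shifts was not tested. With 2 WT and 3 KO libraries per layer, limma's standard errors pool the spread within both genotypes. Read depth is unknown.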
